A study of Mus musculus with 8 samples.

Results

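The mouse genes Ythdf1, Ythdf2, Ythdf3, Ythdc1 and Ythdc2 encode the proteins with a YTH domain, the readers of N6-methyladenosine (m6A) in RNA. They were picked by gene name from the deposited expression table, where they are 5 of 17597 genes, listed beside 1097 subfamilies of transposable elements. The table summarises total RNA sequencing of mouse embryonic stem (mES) cells from a Cast x 129S cross, in which METTL3, the catalytic subunit of the m6A writer complex, carries the FKBP12F36V degron tag. Cells were left untreated (4 libraries) or received dTAG-13, a small molecule that sends FKBP12F36V-tagged proteins for degradation, for 26 h (4 libraries). Each group holds the clones C3 and H5 with 2 replicates each, so a group rests on 2 clones. Every library carries the tag and a TetOn-driven Xist gene, placed on the 129S allele by the labels and on the Mus castaneus X chromosome by the study's methods, and no library received doxycycline. Cells grew on inactivated mouse fibroblast feeders. The labels describe an extraction of chromatin RNA, whereas the molecule label and the study's methods state total RNA, so the fraction of RNA sequenced is given differently by these sources.

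The only expression value used here is a mean the authors took over all 8 libraries after scaling each library's counts by its size factor. It is named the mean count below. It mixes treated and untreated cells, it has no spread between libraries, and where the groups differ it describes neither. The table also holds the authors' own comparison of the groups, which was not used, so the effect of dTAG-13 on the readers was not analysed here. The values below describe how strongly each reader gene was represented in the combined data set. The mean counts summed to 14573411 over genes and 1719306 over transposable elements. Size factors recovered from the lowest values of the table ran from 0.7017 to 1.436 over the 8 unnamed libraries.

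m6A is written on nascent transcripts, mostly at adenosines within a short GGACU-like context and often near the stop codon, and its effects depend on the proteins that bind it. The YTH domain holds the methylated base in a pocket lined by aromatic residues, tryptophans among them. YTHDF1, YTHDF2 and YTHDF3 are cytoplasmic proteins known mainly for the turnover and translation of methylated mRNA. YTHDC1 is the nuclear reader, linked to splicing, export and chromatin-associated RNA, and YTHDC2 is an RNA helicase best known from meiotic germ cells.

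The stretch the 5 proteins share was found by aligning the translated coding sequences, and its coding sequence is shown for 4 genes because it is the feature that defines the family. The proteins were 586 (YTHDF1), 579 (YTHDF2), 596 (YTHDF3), 736 (YTHDC1) and 1445 (YTHDC2) residues long in the GENCODE models with the longest coding sequence. The conserved block covered residues 417 to 545 of YTHDF1, 411 to 539 of YTHDF2, 428 to 556 of YTHDF3, 357 to 488 of YTHDC1 and 1304 to 1428 of YTHDC2. It held 31 columns identical in all 5 proteins, and 3 of those were tryptophans. The windows of 27 bases below are centred on the codons of the first and the second of these tryptophans, written 5′ to 3′ on the coding strand, with the tryptophan codon in capitals.
Ythdf1, first tryptophan (residue 438): aagtactccatcTGGtgtagtactgaa
Ythdf2, first tryptophan (residue 432): aagtataatatcTGGtgcagcacagag
Ythdf3, first tryptophan (residue 449): aagtactctatcTGGtgtagtactgag
Ythdc1, first tryptophan (residue 378): gcaaagggtgtaTGGtccacattgcct
Ythdf1, second tryptophan (residue 492): agcgctggggtcTGGtctcaggacaag
Ythdf2, second tryptophan (residue 486): tgtgcaggtgtgTGGtcccaggacaaa
Ythdf3, second tryptophan (residue 503): tatgctggtgtcTGGtctcaggataag
Ythdc1, second tryptophan (residue 429): tctcctatacacTGGgtgcttccagca
On GRCm38 (mm10) the first windows lie at chr2:180911095-180911121 (minus strand) for Ythdf1, chr4:132204540-132204566 (minus strand) for Ythdf2 and chr3:16204990-16205016 (plus strand) for Ythdf3. All 6 windows of the Ythdf genes fall in coding exons, exon 5 of Ythdf1, exon 4 of Ythdf2 and exon 5 of Ythdf3. The second windows lie at chr2:180910933-180910959, chr4:132204378-132204404 and chr3:16205152-16205178. The first window of Ythdc1 crosses an exon junction and its parts lie between 86821341 and 86822616 on chromosome 5 (plus strand), and its second window is coding sequence at chr5:86822829-86822855.

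Within the conserved block, sequence identity set the YTHDF proteins apart from the YTHDC proteins. There, YTHDF1 and YTHDF2 shared 117 of 129 aligned residues (90.7%), and YTHDF3 shared 118 of 129 (91.5%) with either of them. The block of YTHDC1 and YTHDC2 was identical at 64 of 125 aligned residues (51.2%). Between a YTHDF and a YTHDC protein, block identity ran from 31.8% (YTHDF3 with YTHDC1) to 37.6% (YTHDF1 with YTHDC2). The block was picked by its 31 columns identical in all 5 proteins, and these count toward every pair. They make up 31 of the 40 residues YTHDF3 shares with YTHDC1 there. Part of the gap between the block and the rest of the proteins is thus set by how the block was picked. Outside the block the YTHDF proteins were still 61.5% to 66.2% identical, the YTHDC pair 24.9% and the mixed pairs 16.1% to 20.6%. The values outside the block depend on the alignment. Over the whole length, YTHDC1 and YTHDC2 were 32.0% identical and the mixed pairs 20.3% to 24.6% in the alignment of all 5 proteins, whereas pairwise alignment gave 38.2% and 24.3% to 35.2%, which brings YTHDF1 with YTHDC2 (35.2%) near the YTHDC pair.

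**Figure D1:**
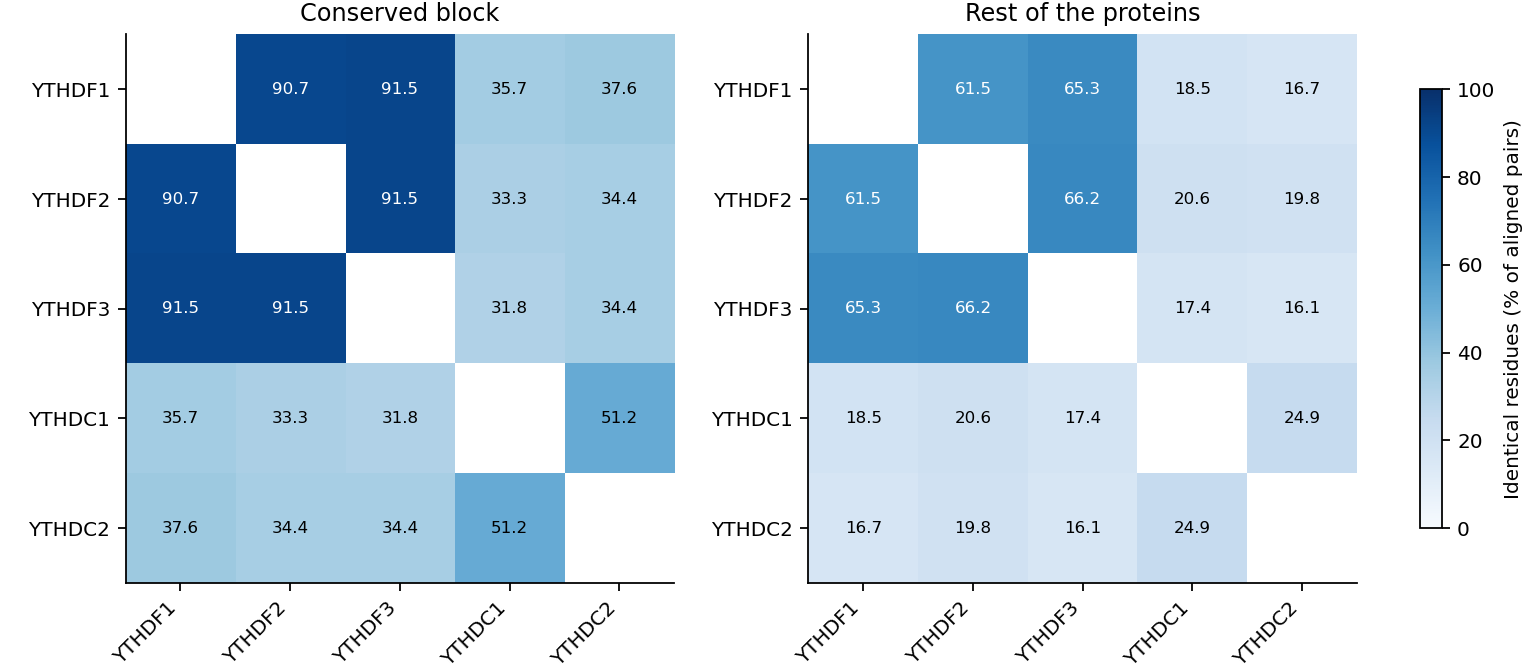
Heat maps of the percentage of identical residues among aligned pairs for the 10 pairs of YTH proteins, in the conserved block on the left and in the rest of the proteins on the right, with rows and columns giving the proteins. The 3 YTHDF pairs reach 90.7% to 91.5% in the block, the YTHDC1 and YTHDC2 pair 51.2%, and the mixed pairs 31.8% to 37.6%.

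The gene models of the YTHDF readers also resembled each other. Ythdf1 had 6 exons, Ythdf2 had 5 and Ythdf3 had 6, and in each a single long internal exon, of 1521, 1584 and 1599 bases, held 86.5%, 91.2% and 89.4% of the coding sequence. Those exons were longer than the longest internal exon of 96.8% (Ythdf1), 97.1% (Ythdf2) and 97.1% (Ythdf3) of 14847 measured coding genes, whose median was 220 bases. Ythdc1 and Ythdc2 were split more finely, into 17 and 30 exons, and the Ythdc1 model has no annotated 5′UTR. Their longest internal exons of 427 and 293 bases held 19.3% and 6.76% of the coding sequence. In these models the 3′UTRs were 272 bases for Ythdf1, 2012 for Ythdf2, 2877 for Ythdf3, 749 for Ythdc1 and 1936 for Ythdc2, against a median of 874 bases. The Ythdf1 model is 2272 bases long, whereas its longest transcript and its RefSeq-mapped exons each come to 3184 bases. The short 3′UTR of Ythdf1 may therefore belong to the model chosen. The genes sit at chr2:180904377-180920949 (Ythdf1), chr4:132184912-132212303 (Ythdf2), chr3:16183212-16217037 (Ythdf3) and chr5:86804221-86836659 (Ythdc1) on GRCm38.

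**Figure D2:**
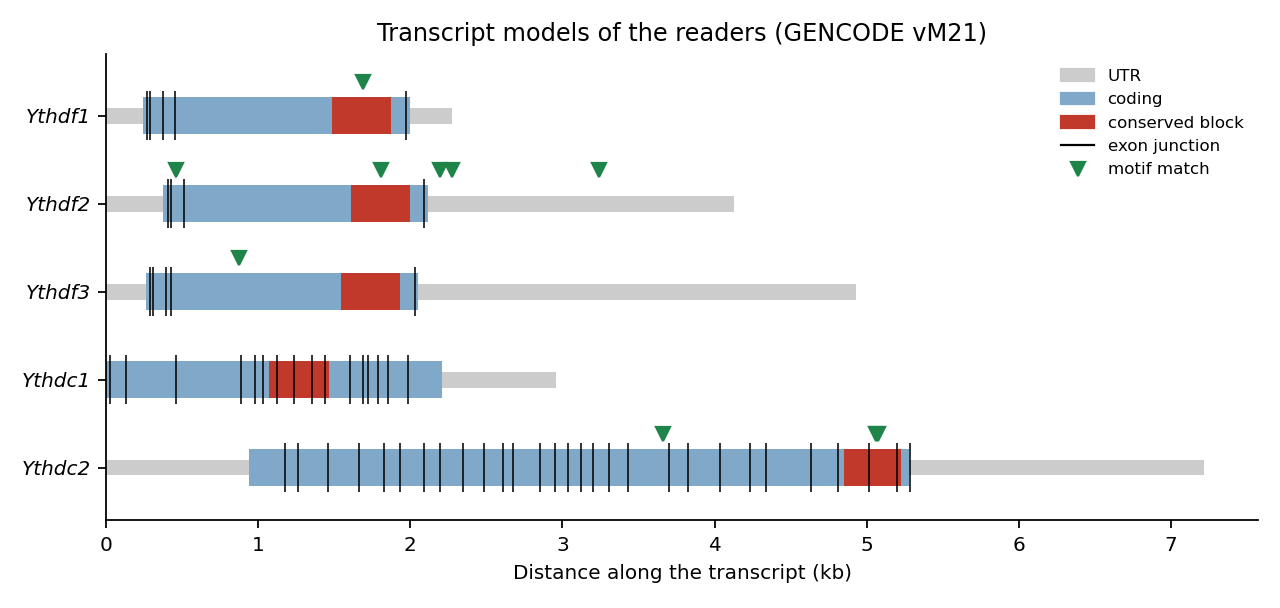
Exon models of the spliced reader transcripts with the longest coding sequence, drawn to scale in kb from the 5′ end, with UTRs in grey, coding sequence in blue, the conserved block in red, exon junctions as black lines and GGACT matches as triangles. The Ythdf genes carry most of their coding sequence in a single long exon, whereas Ythdc1 and Ythdc2 are divided into 17 and 30 exons.

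The letters GGACT, the DNA form of the most common m6A context, were searched on the transcript strand of the same models; no other motif was searched. Of 16337 measured coding genes, 91.2% held at least 1 match, with a median of 3 matches and 1.06 per kb. Ythdf2 held 5 matches (1.21 per kb), more per kb than 58.8% of coding genes. Ythdc2 held 3 (0.416 per kb), Ythdf1 held 1 (0.44 per kb) and Ythdf3 held 1 (0.203 per kb), with 14.5%, 15.4% and 9.08% of coding genes below them. Ythdc1 held 0 in its 2960-base coding model, whereas its longest annotated transcript, which retains introns, held 9 (1.43 per kb). In Ythdf2 the matches lay 1656 and 307 bases upstream of the stop codon and at bases 78, 159 and 1121 of the 3′UTR, so 3 of 5 were in the 3′UTR. In the other genes with matches, all were in coding sequence, as far as 1616 bases upstream of the stop codon in Ythdc2 and 1179 in Ythdf3. A match is a stretch of letters, and m6A was not measured in these libraries.

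On inspection of the sequences, the coding match nearest the stop codon proved to lie at the same place in Ythdf1 and Ythdf2, 25 bases before the codon of the second conserved tryptophan. The windows of 25 bases at that place are shown with the 5 letters at the motif position in capitals, 5′ to 3′.
Ythdf1: agtcccctgtGGACTacggcaccag
Ythdf2: aatctgctgtGGACTacaacacatg
Ythdf3: agtctgttgtAGACTataatgctta
Ythdc1: cttcagaatcACACCatggcggatc
The windows lie at chr2:180910958-180910982, chr4:132204403-132204427, chr3:16205129-16205153 and chr5:86822806-86822830, within coding exons. Ythdf1 and Ythdf2 hold GGACT there, and Ythdf3 and Ythdc1 do not. In Ythdf3 the letters are AGACT, which differ from GGACT in the first letter only. The study marks m6A motifs on Xist as DRACH (A, G or T, then A or G, then AC, then A, C or T). AGACT fits that wider pattern, and the ACACC of Ythdc1 does not. Matches to the wider pattern were not counted. The place was noticed after the sequences had been seen, and the block it lies in is 90.7% identical between YTHDF1 and YTHDF2.

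All 5 readers were expressed. The mean count was 4165 for Ythdf2, 3543 for Ythdc1, 2716 for Ythdf1, 2576 for Ythdf3 and 926.0 for Ythdc2. Counting error was small at these depths: the recovered size factors bound the reads behind these means at 5198 to 10639 over the 8 libraries for Ythdc2 and 23383 to 47857 for Ythdf2, which gives a coefficient of variation of at most 1.39% and 0.654%. The bounds cover counting error only, and the spread between clones, replicates and treatments is not included.

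To compare genes, the mean count was divided by the length of all GENCODE exons of a gene merged, in kb, and scaled so that the 17374 genes with a length sum to 1000000. The study took its gene annotation from UCSC, and the exons behind its counts are not known here. Where merged exons include sequence that was not counted, a level comes out too low, so orders and percentages on this scale rest on the GENCODE lengths. On this level scale Ythdf2 stood at 214.8, Ythdf1 at 193.1, Ythdf3 at 113.3, Ythdc1 at 61.2 and Ythdc2 at 24.6. The median gene stood at 9.41. Ythdf2 was above 94.8% of genes, Ythdf1 above 94.1%, Ythdf3 above 89.4%, Ythdc1 above 81.2% and Ythdc2 above 65.7%. Ythdf2 exceeded Ythdf1 by 1.11 times, the smallest gap between neighbours in the order, and Ythdc1 exceeded Ythdc2 by 2.49 times. Whether neighbours differ beyond the spread between libraries cannot be told from a mean alone.

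The place of Ythdc1, the nuclear reader, depended on the length it was divided by. GENCODE lists 9 Ythdc1 transcripts, of which 4 are retained-intron models, and its merged exons come to 13651 bases, 75.8% of them outside transcripts that map to RefSeq. A lincRNA on the same strand, Gm43055, overlaps 631 of those bases. With the RefSeq-mapped exons alone (3305 bases), a scale added after this was seen, Ythdc1 stood at 171.4, ahead of Ythdf2 at 161.3, Ythdf1 at 136.4, Ythdf3 at 78.0 and Ythdc2 at 20.5. Here Ythdc1 led Ythdf2 by 1.06 times and was above 93.4% of the genes with such a length. Every scale divides the same mean count, so reads from exons outside RefSeq, if counted, would put this level of Ythdc1 too high. Whether such reads were counted is not known here. With the longest transcript the order was Ythdf2 (177.4), Ythdf1 (150.0), Ythdc1 (98.7), Ythdf3 (88.8) and Ythdc2 (22.6). Ythdf2 was above Ythdf1, Ythdf1 above Ythdf3, and Ythdc2 lowest under every length used. The 3 YTHDF genes made up 85.9% of the summed reader level on merged exons and 66.2% on RefSeq-mapped exons.

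**Figure D3:**
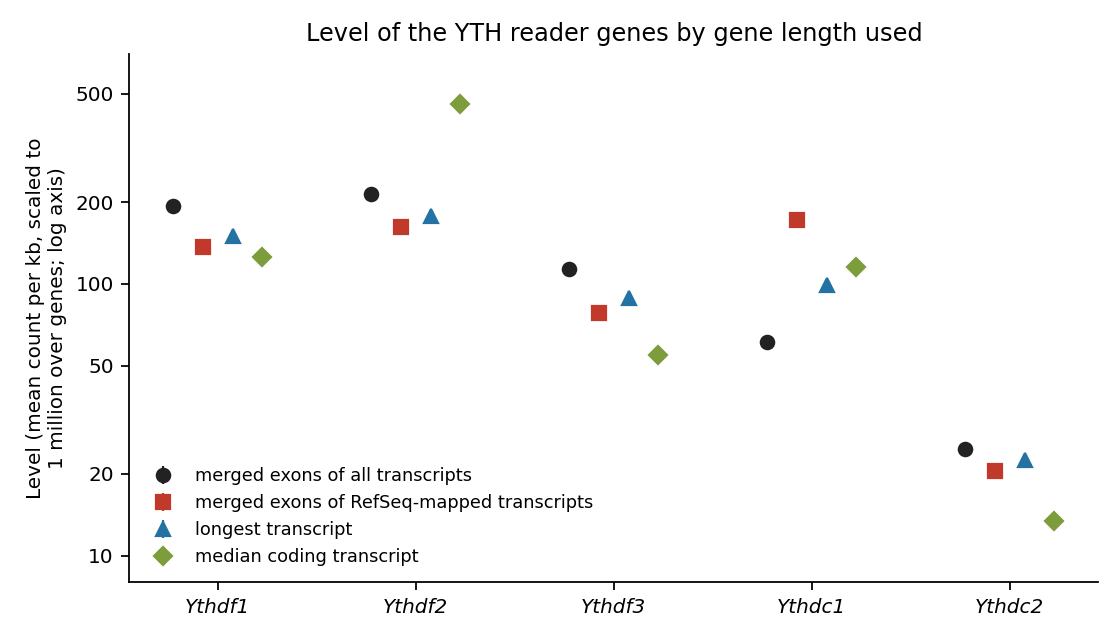
Level of each reader gene (mean count per kb scaled to 1000000 over genes, log axis) under 4 definitions of gene length, from the authors' mean over 8 libraries; counting error bars are smaller than the symbols and no spread between libraries is known. Ythdc1 moves from 61.2 on merged exons to 171.4 on RefSeq-mapped exons, and Ythdc2 is lowest under each definition.

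The writer complex, which deposits the mark the readers bind, stood lower than the YTHDF genes on merged exons, except that Wtap was above Ythdf3. Wtap was below Ythdf1 and Ythdf2 there. With the longest transcript, Wtap at 266.2 was above Ythdf2 at 177.4, the highest YTHDF gene on that scale. All 8 writer genes were above the median gene, and 7 of 8 were below Ythdf3 on merged exons. Of all genes, 89.4% were below Ythdf3 on that scale, so the count of writers is near the share over all genes. The methyltransferase subunits Mettl3 and Mettl14 stood at 31.8 and 22.8. Wtap, the adaptor that localises the pair to nuclear speckles, stood at 182.0 and was the highest writer. The scaffold Virma stood at 71.4, Zc3h13 at 53.6, the RNA-binding subunits Rbm15 and Rbm15b at 51.0 and 36.6, and the ubiquitin ligase homologue Cbll1 at 18.6. The list median was 43.8 for writers and 113.3 for readers. The summed level was 467.8 for writers and 607 for readers on merged exons, and 438.8 and 567.5 on RefSeq-mapped exons. The summed reader level was 19.1 times that of Mettl3 on merged exons, 10.5 times on RefSeq-mapped exons, 9.64 times with the longest transcript and 6.91 times with the median coding transcript. With the last of these, Mettl3 stood at 110.7, above Ythdf3 at 54.8. The median coding transcript of Mettl3 is 647.5 bases, against 2025 for its RefSeq-mapped exons. On the latter, Mettl3 stood at 54.0, below Ythdf3 at 78.0. Mettl3 RNA is read here from libraries with and without dTAG-13, which acts on the tagged protein.

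Both erasers, the demethylases that remove m6A or related marks, were below every YTHDF gene. On merged exons, 89.4% of all genes were below Ythdf3, the lowest YTHDF gene. Alkbh5 stood at 47.7 and Fto at 14.4. On RefSeq-mapped exons they stood closer together, at 33.8 and 35.6.

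Among 14 partners of the readers, 13 were, on merged exons, above the median gene, and the exception was the germ cell gene Rbm46. Cnot1, the scaffold of the CCR4-NOT deadenylase that YTHDF2 recruits, stood at 218.4. Rida, the adaptor between YTHDF2 and RNase P/MRP, stood at 48.7 and the decay helicase Upf1 at 87.7. Their order turned on RefSeq-mapped exons, where Rida stood at 105.0 and Upf1 at 59.5. Eif3a, a subunit of the translation initiation factor eIF3, was the highest on merged exons at 376.6, whereas on RefSeq-mapped exons Srsf3 (510.3) was above Eif3a (435.0). For the nuclear reader, the splicing factors Srsf3 and Srsf10 stood at 292.9 and 155.4 and the mRNA export receptor Nxf1 at 121.5. The RNA-binding proteins Safb and Khdrbs1 stood at 58.0 and 55.7, and Safb at 92.0 on RefSeq-mapped exons. Zcchc8 and Mtrex, subunits of the nuclear exosome targeting machinery, stood at 68.2 and 116.2. For YTHDC2, the 5′-3′ exonuclease Xrn1 stood at 10.3, its meiotic partner Meioc at 20.8, and Rbm46, which acts with both in germ cells, at 2.55 from a mean count of 27.0. On merged exons these 3 were the only partners below Ythdc2, which stood at 24.6. With the median coding transcript Ythdc2 stood at 13.5, below Xrn1 at 19.8 and close to Meioc at 13.6. That median is 4296 bases for Xrn1, against 10275 for its RefSeq-mapped exons, whereas both lengths are 7215 for Ythdc2. On RefSeq-mapped exons Xrn1 stood at 12.6 and Meioc at 14.2, below Ythdc2 at 20.5.

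**Figure D4:**
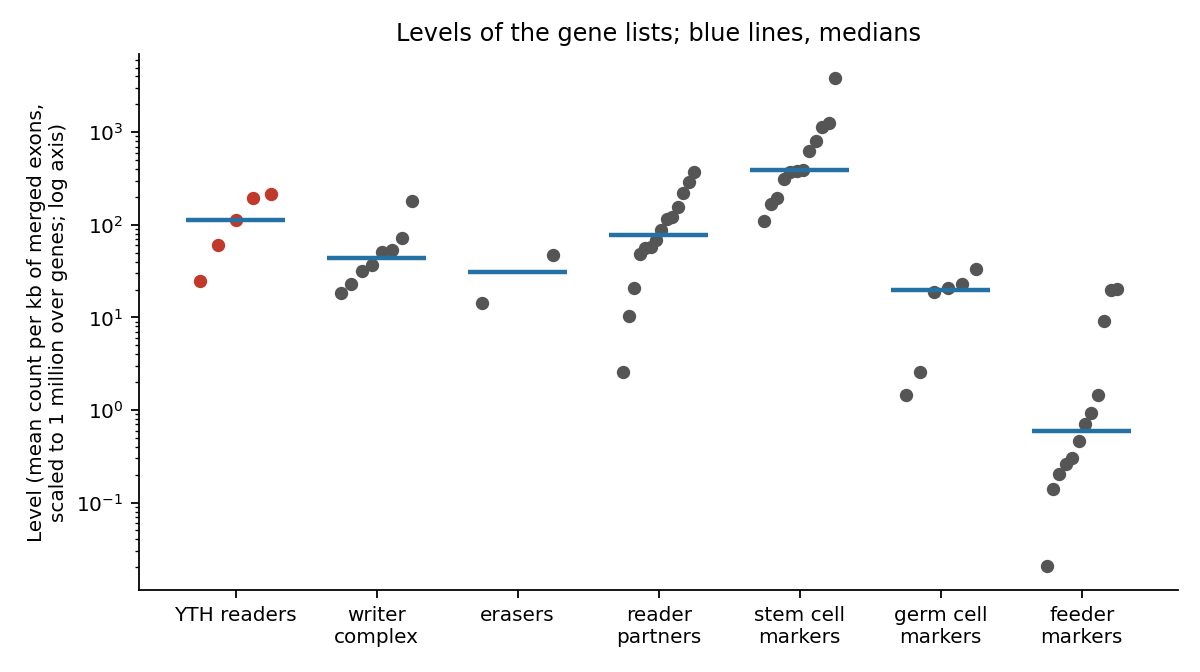
Level on merged exons (mean count per kb scaled to 1000000 over genes, log axis) of each gene in the 7 lists, with points for genes sorted within a list, readers in red and blue lines at list medians. Readers have a median of 113.3, writers 43.8, partners 78.0, stem cell markers 388.6 and feeder markers 0.588.

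Markers of the labelled cell type and of cells that could accompany it were read in the same table. All 12 stem cell markers were above 100 on the merged-exon scale, with Dppa5a at 3806, Pou5f1 at 1252, Zfp42 at 1141 and the lowest, Klf4, at 109.4. Of 12 fibroblast markers, 10 were below the median gene. The highest were S100a4 at 20.0, Fbln1 at 19.6 and Thy1 at 9.13, and Postn was lowest at 0.0208. No fibroblast marker reached the level of Ythdc2 on merged exons, but with the median coding transcript Thy1 stood at 21.2 against 13.5 for Ythdc2. That median is 572.5 bases for Thy1, against 1735 for its RefSeq-mapped exons. On the latter, Thy1 stood at 10.7 and Ythdc2 at 20.5. How much reader RNA came from the feeders was not tested. Of the 6 germ cell genes, Ddx4 stood at 33.7, Sycp3 at 22.8, Meioc at 20.8 and Stra8 was lowest at 1.46. On merged exons 5 of 6 were below Ythdc2, as were 65.7% of all genes.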

How the data were processed

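Total RNA libraries (8) were made with a stranded, rRNA-depleted kit. The authors removed rRNA reads, aligned to mm10, removed PCR duplicates with Picard and counted genes and transposable elements with TEtranscripts at default settings, per the methods. By default that tool uses no strand, but "reverse" appears in the deposited table's name, and the sources leave the strand setting of the counts undecided. The deposited signal used here is the mean of size-factor-scaled counts over all 8 libraries, computed by the authors. The other 5 columns hold the authors' own comparison of treated with untreated cells (log2 fold change, its error, a statistic and p-values) and were not used. There are no values per library, so no test was possible and no replicate comparison was made.

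Gene symbols were matched to GENCODE vM21 (GRCm38): 16660 directly and 714 by older symbol, or 98.7% of genes. Virma, Rida, Mtrex and Meioc are listed under older symbols. Levels are mean counts per kb of merged exons, scaled to 1000000. Library weights were recovered from features with a mean under 1: 7 came from the smallest values, and the last was the candidate that made most of these values whole reads. With them, 1064 of 1064 values were whole reads within 1e-08. Since the last weight was chosen on these same values, that share is no independent check. Proteins were translated from the GENCODE transcript with the longest coding sequence, where RefSeq proteins had been planned, and aligned with mafft 7.526. The conserved block is the longest run of columns identical in all 5 proteins with gaps of at most 25 columns, a limit set without trying others. Python 3.11.15, pandas 2.3.3 and Biopython 1.88 were used. Named genes are the readers, the whole writer, eraser and partner lists, and of each marker list the 3 highest and the lowest. The members and lists were chosen with earlier results of these data known. Alternatives were 3 other gene lengths, no length, a minimum mean count of 10, coding genes only, shares that include transposable elements, pairwise alignment and the longest transcript for the motif search.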

Additional observations from a re-analysis of the deposited data

How the results depend on the processing

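Gene length was the choice that moved most values. Counting error served as the yardstick for levels and shares, since no spread between libraries is known. A rank counted as moved when it left the binomial confidence interval of the main percentage, taken over the number of genes. With the longest transcript, Ythdf1 stood at 150.0, Ythdf2 at 177.4, Ythdf3 at 88.8, Ythdc1 at 98.7 and Ythdc2 at 22.6. With the median coding transcript, they stood at 125.2, 457.0, 54.8, 115.2 and 13.5 (the coding median of Ythdf2 is 955 bases, shorter than the coding sequence of its full model). With RefSeq-mapped exons, an alternative chosen after seeing the data, they stood at 136.4, 161.3, 78.0, 171.4 and 20.5. Of the 5 readers, 3 kept their place in the order with the longest transcript, 3 with the median coding transcript, 1 with RefSeq-mapped exons and 2 with no length. Scaling over the genes whose mean count reached 10 changes every level by the same factor, and it moved no reader level beyond counting error. Of 15 alternative ranks among genes, 12 moved. All 5 shares of the mean count moved when transposable elements were included. That step lowers the share of every gene by the same factor, so it tells nothing particular about the readers. Under pairwise alignment the number of protein pairs above 50% identity stayed at 3. YTHDF1 with YTHDC2 went from 21.6% to 35.2% and YTHDF3 with YTHDC2 from 20.3% to 33.9%. For Ythdc1, GGACT went from 0 to 1.43 per kb in the longest transcript. No paired analysis was possible because the table holds a single mean over all libraries. Leaving out a replicate could not be run for the same reason.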
